A study of Caenorhabditis elegans with 12 samples.

Results

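The genes described here are 10 members of the saposin-like (spp) and antibacterial factor-related (abf) families of the nematode Caenorhabditis elegans, namely spp-1, spp-3, spp-5, spp-8, spp-9, spp-14, spp-18, abf-2, abf-5 and abf-6. They were taken by name, not by their level in any library, from a table of 46926 genes whose identifiers were matched to symbols. The annotation names 37 spp and abf genes in all, and the other 27 are described below as a comparison. RNA was measured in 12 libraries of whole animals at the fourth larval stage (L4), with 3 biological replicates for each of 4 strains. The laboratory wild type N2 was set beside a nuo-6(qm200) strain, an itr-1(sa73) strain and a double mutant labelled nuo-6; itr-1, written nuo-6;itr-1 below. The labels give no alleles for the double mutant beyond both gene names. All 4 strains were fed HT115, an Escherichia coli strain used for feeding RNA interference, with an empty vector, so all were exposed to a laboratory food bacterium and none to a named pathogen. The gene nuo-6 encodes a subunit of mitochondrial complex I, and itr-1 encodes the inositol trisphosphate (InsP3) receptor, which releases calcium from the endoplasmic reticulum. Each allele is known to alter an amino acid, in every cell of the worm, and so the level of either transcript cannot check the strain labels.

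The nematode has no antibodies and no circulating phagocytes, and it meets bacteria mainly in the lumen of the gut. Saposin-like proteins of the spp family, also called caenopores, are relatives of amoebapores and of mammalian NK-lysin, small proteins that permeabilise bacterial membranes. The abf genes encode small cysteine-rich peptides that resemble defensins and were first recognised by their likeness to antibacterial peptides of the roundworm Ascaris. Both families are counted among the effectors of innate immunity, and several of their members are made in the intestine or the pharynx, the tissues that take up and digest bacteria.

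Values are TPM, a length-corrected share of a library's transcripts, so levels of different genes can be set side by side. TPM keeps no depth, so the reads behind a value are unknown. Between 13879 and 14902 genes per library reached 1 TPM, no 2 libraries were identical, and none of the 78 ribosomal protein genes was listed at 0 in any library. Fold changes are log2 differences ± SE on the log2(TPM + 1) scale, fitted with limma over the 15230 genes that had at least 1 TPM in at least 3 libraries. On that scale the change of a gene near or below 1 TPM is understated. A gene is called higher or lower where limma's adjusted p (Benjamini-Hochberg over all 15230 genes) was under 0.05. All 10 genes entered the fit, but spp-9 did so only through the 6 libraries that carry the itr-1 mutation, so it had to differ to be tested. The counts below that set an itr-1-carrying strain against N2 or nuo-6 include it. Fewer cells of a type and less RNA per cell cannot be told apart in these whole-animal libraries.

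Together the 10 genes made up 5315 to 5822 TPM per library in N2 and 4518 to 5213 TPM in nuo-6. With the itr-1 mutation they made up 7407 to 8444 TPM in the single and 7969 to 10008 TPM in the double mutant. The itr-1-carrying libraries were all above the other libraries in this sum. Most of it came from spp-14, spp-5 and spp-3, which gave 93.4% to 96.9% of the summed TPM in every library. By mean TPM over the 12 libraries, spp-14 ranked 27, spp-5 ranked 90, spp-3 ranked 224 and spp-1 ranked 887 among all genes. The next were spp-8 at rank 2289 and spp-18 at rank 2417, followed by abf-6 at 6021, abf-5 at 6616, spp-9 at 9430 and abf-2 at 11622. The family therefore spanned some of the most abundant transcripts of the worm and transcripts of a few TPM.

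**Figure D1:**
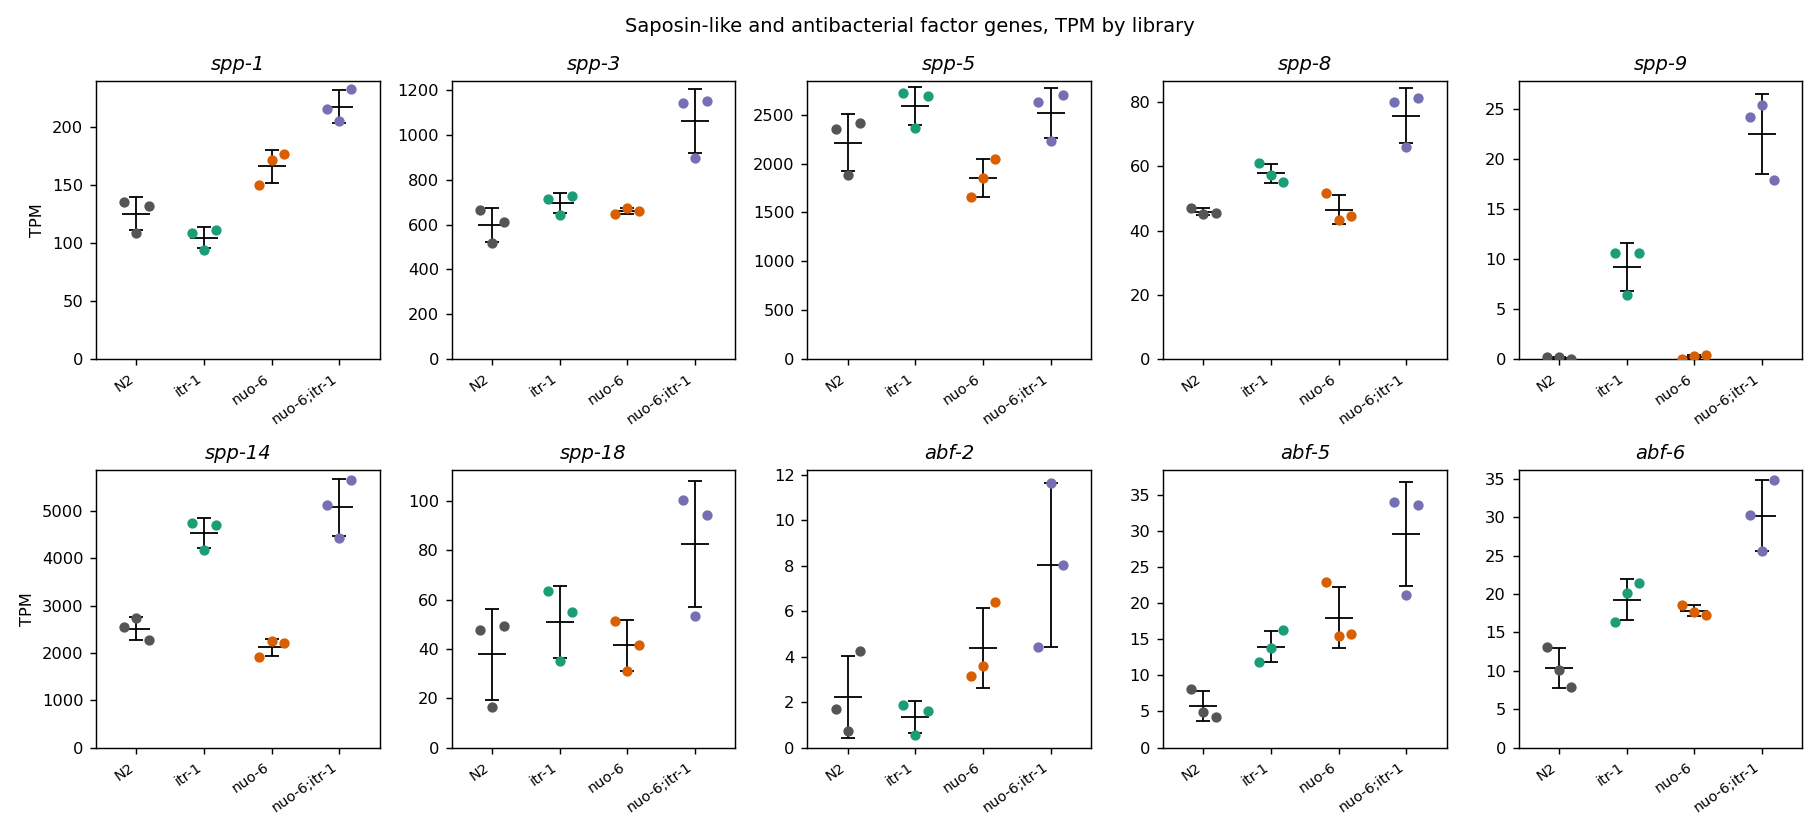
Level of each of the 10 genes in TPM (linear axis from 0, a scale of its own for each gene), with 1 coloured point per library by strain and a black bar with whiskers for the mean ± SD (n = 3). The points of spp-14 and spp-9 separate the libraries with the itr-1 mutation from those without it, whereas the 3 libraries of spp-18 spread widely within each strain.

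In the double mutant 9 of the 10 genes were higher than in N2 and none was lower. Among all tested genes 46.3% were higher in this comparison, 17% were lower and 63.3% changed. The median log2 fold was 1.11 over the 10 genes and 0.25 over all tested genes. The gene not called was spp-5. With median-of-ratios scaling, which lowers the median of all tested genes by 0.24, 8 were higher and none lower. Of all 15230 tested genes, 8824 changed with that scaling, beside 9647 without it.

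Each single mutant changed fewer of the 10 genes. In itr-1 against N2, 5 were higher (spp-8, spp-9, spp-14, abf-5 and abf-6) and none was lower, where 29% of all tested genes were higher and 40.1% changed. In nuo-6 against N2, 3 were higher (spp-1, abf-5 and abf-6) and none was lower, where 37.3% of all tested genes were higher and 52.3% changed. The median log2 fold of the 10 genes was 0.43 in itr-1 and 0.20 in nuo-6, beside 0.14 and 0.18 over all tested genes, so the nuo-6 share and median were close to the background. Median-of-ratios scaling lowered the median of all genes by 0.14 in itr-1 and 0.16 in nuo-6. It gave 4 higher and 1 lower for itr-1, and 2 higher and 2 lower for nuo-6. Of all tested genes, 5851 changed with it in itr-1 and 7472 in nuo-6, beside 6109 and 7968 without it. All 3 comparisons with N2 share the N2 libraries.

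Adding the itr-1 mutation to nuo-6 left 7 of the 10 genes higher (spp-1, spp-3, spp-5, spp-8, spp-9, spp-14 and abf-6) and none lower, in a comparison where only 9.99% of all tested genes were higher, 5.46% were lower and 15.4% changed. The median log2 fold was 0.70 over the 10 genes and 0.07 over all tested genes. With median-of-ratios scaling 5 were higher, since spp-1 and spp-5 were no longer called. Without replicate 1 or without replicate 3 of the double mutant, 4 of the 10 were called. Of all 15230 tested genes, 2010 changed with that scaling, and 1269 and 1418 without these libraries, beside 2353 in the fit described. Adding nuo-6 to itr-1 also left 7 of 10 higher (spp-1, spp-3, spp-8, spp-9, abf-2, abf-5 and abf-6) and none lower, where 29.3% of all tested genes were higher and 45.7% changed. With median-of-ratios scaling 7 were also higher and none lower, and 6701 of all tested genes changed, beside 6964 without it. Between the single mutants, 1 of the 10 (spp-1) was higher in nuo-6 than in itr-1 and 4 (spp-5, spp-8, spp-9 and spp-14) were lower. In that comparison 20% of all tested genes were higher, 13.9% were lower and 33.9% changed.

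Read without a fit, the 3 libraries of each strain did not overlap for 9 of the 10 genes between the double mutant and N2, where this held for 67.2% of all tested genes. Against nuo-6 it held for 8 of 10 in the double mutant, beside 39.6% of all tested genes, and against itr-1 for 7 of 10, beside 51.3%. It held for 5 of 10 in itr-1 against N2 (50.8% of all tested genes), for 4 of 10 in nuo-6 against N2 (66%) and for 6 of 10 between the single mutants (50.5%). The excess of the 10 genes over the background was thus widest in the double mutant against nuo-6. There spp-9 had to differ to be tested, and the others without overlap were abf-6, spp-1, spp-3, spp-5, spp-8, spp-14 and spp-18.

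**Figure D2:**
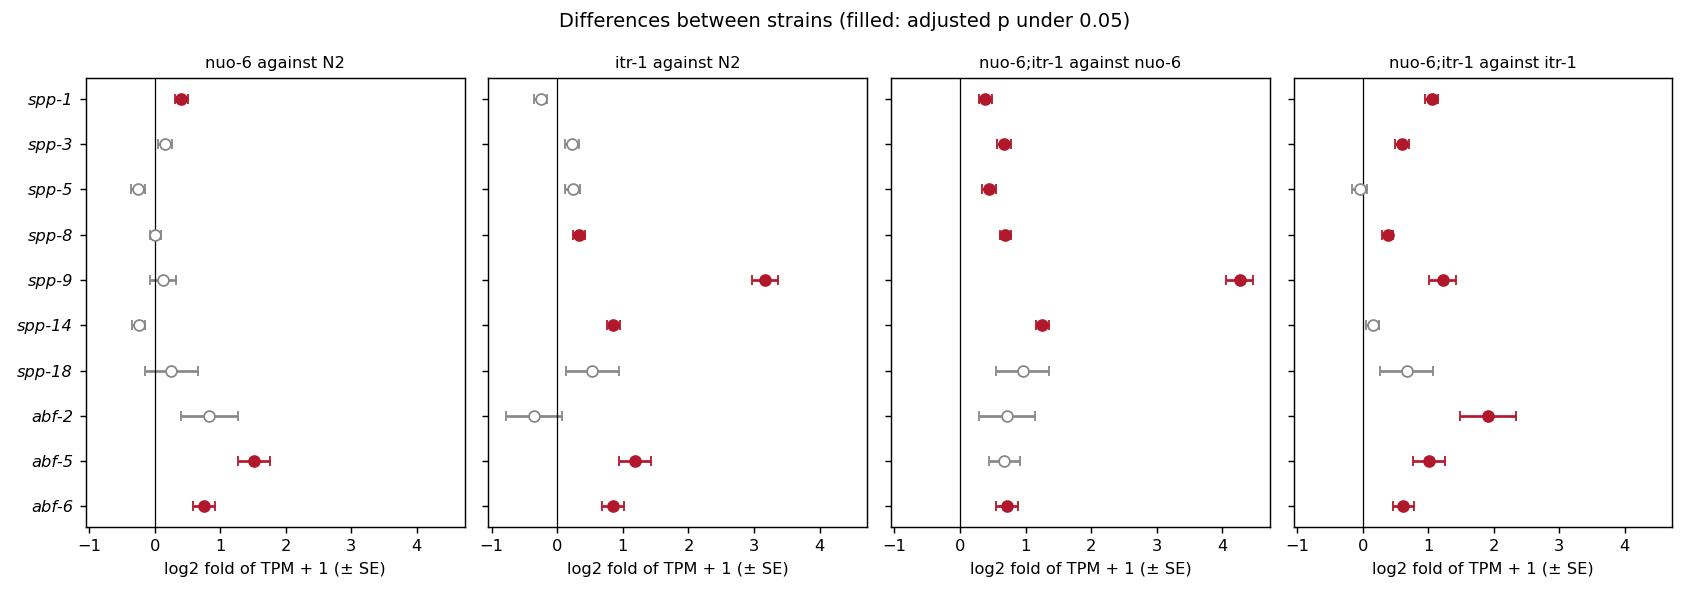
Log2 fold ± SE of each of the 10 genes on the log2(TPM + 1) scale (n = 3 libraries per strain) in 4 pairwise comparisons, 1 panel each, with filled red points where the adjusted p was under 0.05 and open grey points elsewhere. In nuo-6;itr-1 against nuo-6 the folds run from 0.39 for spp-1 to 4.26 for spp-9, and 7 points are filled.

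The most abundant of the 10 was spp-14 (WBGene00004999, chromosome X, 7725979 to 7726383, plus strand, WBcel235). It stood at 2548, 2729 and 2267 TPM in the N2 libraries, 4735, 4169.6 and 4709 in itr-1, 1911, 2245 and 2202 in nuo-6, and 5133, 4436 and 5647 in nuo-6;itr-1. Every library with the itr-1 mutation was above every library without it. The log2 fold was 0.85 ± 0.10 in itr-1 against N2 (adjusted p = 0.000148) and 1.26 ± 0.10 in nuo-6;itr-1 against nuo-6 (adjusted p = 2.97e-05). The double mutant did not pass the test against itr-1 (0.16 ± 0.10, adjusted p = 0.233). The nuo-6 libraries were all below the N2 libraries, but this difference did not pass (-0.25 ± 0.10, adjusted p = 0.0616) except under some alternatives, such as median-of-ratios scaling (-0.44, adjusted p = 0.00867; range over 24 alternatives 0.00867 to 0.992). The share of spp-14 in the summed TPM of the 10 genes was 40.98% to 51.3% in N2 and 42.2% to 44.4% in nuo-6, against 56.0% to 56.3% in itr-1 and 54.7% to 56.4% in the double mutant.

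The next gene on the chromosome is the vitellogenin gene vit-1, 1505 bases away, which encodes a yolk protein made in the intestine. Its level did not follow that of spp-14. It was 32.1, 111 and 50.1 TPM in N2, 33.8, 243 and 41.3 in itr-1, 26.5, 69.5 and 66.1 in nuo-6, and 2.36, 25.3 and 3.10 in nuo-6;itr-1. In the double mutant vit-1 fell against itr-1 by 3.32 ± 0.89 on the log2 scale (adjusted p = 0.0115), a comparison in which spp-14 was not called.

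Of 6544 named genes with at least 5 TPM on average, the 4 whose log2(TPM + 1) was most correlated with that of spp-14 over the 12 libraries were asp-2 (r = 0.983), dpy-27 (r = 0.981), asp-3 (r = 0.981) and spp-2 (r = 0.976). These libraries fall into 4 strains, so the values describe a shared order of strains. The genes asp-2 and asp-3 encode aspartyl proteases, and asp-2 averaged 454 TPM in N2, 742 in itr-1, 428 in nuo-6 and 794 in nuo-6;itr-1. The gene dpy-27 belongs to the dosage compensation machinery of the X chromosome, and spp-2 is a saposin-like gene of the X cluster described below.

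The gene spp-9 (WBGene00004994, chromosome X, 11487784 to 11488203, plus strand) showed the largest folds among the 10 genes in each comparison of an itr-1-carrying strain with N2 or nuo-6. A reporter of spp-9 is known to be held down by DBL-1, a ligand of the bone morphogenetic protein family. Its level was 0.156, 0.173 and 0 TPM in N2, and 0, 0.298 and 0.367 TPM in nuo-6. In itr-1 it was 10.6, 6.403 and 10.6 TPM, and in the double mutant 24.2, 25.4 and 17.9 TPM. It was thus at or near 0 in the 6 libraries without the itr-1 mutation, and the double mutant libraries were all above the itr-1 libraries. The log2 fold was 3.17 ± 0.20 in itr-1 against N2 (adjusted p = 2.19e-06) and 4.26 ± 0.20 in nuo-6;itr-1 against nuo-6 (adjusted p = 5.21e-07). Against itr-1 the double mutant was higher by 1.22 ± 0.20 (adjusted p = 0.000703), a call lost with a pseudocount of 0.1 TPM (1.30, adjusted p = 0.0795; range over 24 alternatives 0.000669 to 0.0795).

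The interaction, which is the itr-1 effect in the nuo-6 background minus the itr-1 effect in the N2 background, was 1.09 ± 0.28 for spp-9 (adjusted p = 0.0324). Both baselines lie far below the pseudocount of 1 TPM, and the call was lost with a pseudocount of 0.1 (0.83, adjusted p = 0.523), one of 0.5 (1.05, adjusted p = 0.0834), with no filter (adjusted p = 0.0507) and with the oocyte score as a covariate (adjusted p = 0.137). It was also lost without replicate 1 or 2 of N2, replicate 2 of itr-1, replicate 1, 2 or 3 of nuo-6 or replicate 1 of the double mutant. Without all libraries numbered 2 it was lost as well (adjusted p = 0.126), and it was kept in 11 of 23 alternatives (0.0139 to 0.523).

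Among the saposin-like genes that are not among the 10, spp-12 and spp-21 were also near 0 TPM without the itr-1 mutation and higher with it. The gene spp-12 encodes an antimicrobial saposin-like protein of pharyngeal neurons and was named by the rule for the other family genes. It averaged 0.147 ± 0.173 TPM in N2 and 0.266 ± 0.244 in nuo-6, against 17.9 ± 3.76 in itr-1 and 11.6 ± 3.99 in the double mutant (SD, n = 3). Its log2 fold was 4.04 ± 0.24 in itr-1 against N2 (adjusted p = 1.33e-06) and 3.29 ± 0.24 in nuo-6;itr-1 against nuo-6 (adjusted p = 1.24e-05). The gene spp-21, named here for its position, is the neighbour of spp-9, 1926 bases away on the same strand. It was listed at 0 in all 3 N2 libraries and stood at 0, 0 and 0.521 TPM in nuo-6, 3.21, 2.14 and 4.88 in itr-1, and 8.64, 4.90 and 4.16 in nuo-6;itr-1. The adjusted p of spp-21 was 0.000266 in itr-1 against N2 and 0.000251 in nuo-6;itr-1 against nuo-6. Both spp-12 and spp-21 entered the fit, like spp-9, only through the itr-1-carrying libraries. Neither passed the test between the double mutant and itr-1 (adjusted p = 0.0548 for spp-12 and 0.0758 for spp-21).

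**Figure D3:**
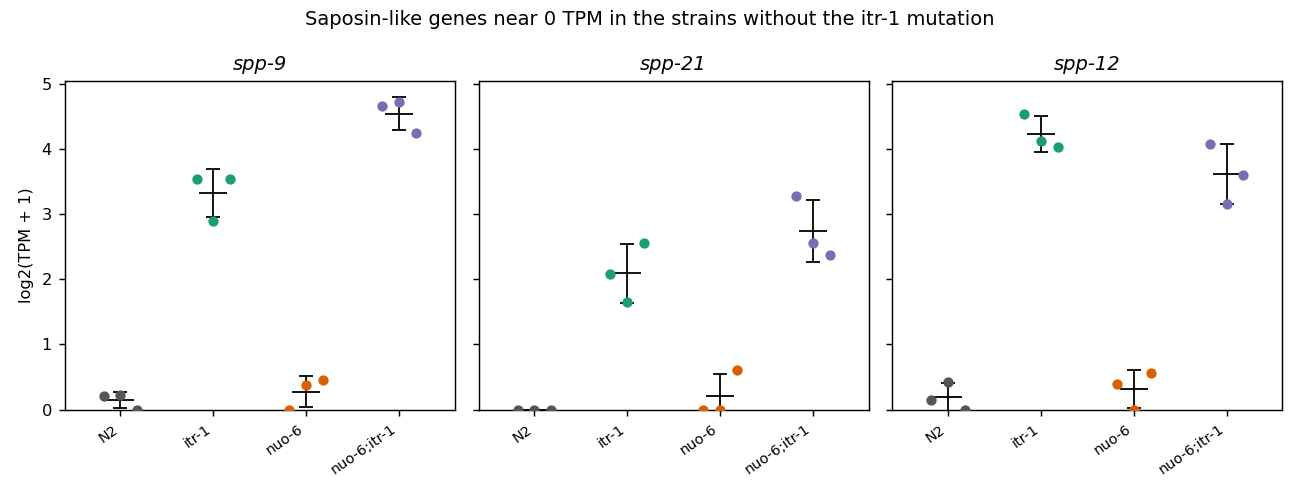
Level of spp-9, spp-21 and spp-12 as log2(TPM + 1) in each library, by strain, with 1 coloured point per library and a black bar with whiskers for the mean ± SD of those log2 values (n = 3). In N2 and nuo-6 every value is under 1 TPM, and in itr-1 and nuo-6;itr-1 every value is above 2 TPM.

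The intestinal caenopores with known activity against bacteria had unlike orders of strains. The proteins SPP-1, SPP-3 and SPP-5 permeabilise membranes and kill bacteria as recombinant proteins, and SPP-5 is the best studied pore-former among them. The gene spp-5 (WBGene00004990, chromosome X, 7319937 to 7320354, minus strand) stood at 2356, 1881 and 2413 TPM in N2, 2719.7, 2367 and 2695 in itr-1, 1661, 1855 and 2046 in nuo-6, and 2629, 2229 and 2706 in nuo-6;itr-1. The nuo-6 libraries were low and did not overlap those of itr-1 or the double mutant, while N2 overlapped with all other strains. It was the only one of the 10 not called in the double mutant against N2 (0.19 ± 0.11, adjusted p = 0.164). It was lower in nuo-6 than in itr-1 (-0.49 ± 0.11, adjusted p = 0.00699). It was higher in the double mutant than in nuo-6 (0.44 ± 0.11, adjusted p = 0.0240), a call that did not hold after median-of-ratios scaling (adjusted p = 0.112) or without replicate 1 or 2 of nuo-6 or replicate 1 or 3 of the double mutant (range over 24 alternatives 0.00200 to 0.112).

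The gene spp-3 (WBGene00004988, chromosome X, 7314969 to 7315353, minus strand) was highest in the double mutant. It stood at 665, 519 and 610.1 TPM in N2, 715, 643 and 728 in itr-1, and 647, 672 and 662 in nuo-6, against 1141, 897 and 1151 in nuo-6;itr-1. Every double mutant library was above all 9 others, and itr-1 and nuo-6 each overlapped with N2. The log2 fold in the double mutant was 0.83 ± 0.11 against N2 (adjusted p = 6.15e-05), 0.68 ± 0.11 against nuo-6 (adjusted p = 0.00210) and 0.60 ± 0.11 against itr-1 (adjusted p = 0.00116). Neither single mutant passed against N2 (0.22 ± 0.11, adjusted p = 0.118, for itr-1 and 0.15 ± 0.11, adjusted p = 0.258, for nuo-6). The test of the interaction itself did not pass (0.45 ± 0.15, adjusted p = 0.0750).

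The gene spp-1 (WBGene00004986, chromosome III, 10355098 to 10355668, minus strand) had another order of strains than spp-14. It stood at 136, 109 and 132 TPM in N2, 109, 94.2 and 111 in itr-1, 150.4, 172 and 177 in nuo-6, and 215, 205 and 233 in nuo-6;itr-1. The nuo-6-carrying libraries were all above those without the nuo-6 mutation, and the double mutant was above nuo-6. The log2 fold was 0.41 ± 0.10 in nuo-6 against N2 (adjusted p = 0.00527) and 1.05 ± 0.10 in nuo-6;itr-1 against itr-1 (adjusted p = 1.88e-05). The first of these calls did not hold after median-of-ratios scaling (0.22, adjusted p = 0.156; range over 24 alternatives 0.000412 to 0.156).

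The effect of the itr-1 mutation on spp-1 differed between the N2 and nuo-6 backgrounds. Against N2 the itr-1 libraries were not called (-0.26 ± 0.10, adjusted p = 0.0594; -0.42 and 0.0171 with median-of-ratios scaling, within a range of 0.0157 to 0.787 over 24 alternatives). Against nuo-6 the double mutant was higher (0.39 ± 0.10, adjusted p = 0.0229), a call that did not hold after median-of-ratios scaling (adjusted p = 0.118) or without replicate 1 or 2 of nuo-6 or replicate 1 or 3 of the double mutant (0.00170 to 0.118). The difference between these effects passed its own test, with an interaction of 0.64 ± 0.14 (adjusted p = 0.0163). Over 23 alternatives its adjusted p ran from 0.00645 to 0.102, and it missed the threshold in 1 of them, the fit with the oocyte score as a covariate. Among the 10 genes, 2 had a positive interaction past the threshold (spp-1 and spp-9) and none a negative one, where 3.69% of all tested genes had a positive interaction, 8.32% a negative one and 12% either. The gene spp-1 overlaps T07C4.3 on the opposite strand only from base 10355098 to 10355116, and T07C4.3 stood at 31.9 to 54.4 TPM. The libraries were stranded per the labels, but whether the counting used strand is not given in the sources used here, so a share of T07C4.3 reads in the value of spp-1 was not tested.

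The genes spp-3 and spp-5 are the outer genes of a cluster of 5 saposin-like genes (spp-3, spp-2, spp-6, spp-4 and spp-5) within 5386 bases of the X chromosome. The 3 genes between them are described for their position. The gene spp-2 averaged 142 ± 24.6 TPM in N2, 329 ± 28.99 in itr-1, 128 ± 10.9 in nuo-6 and 345 ± 56.0 in nuo-6;itr-1 (SD, n = 3). It was higher with the itr-1 mutation in both backgrounds, by 1.22 ± 0.14 against N2 (adjusted p = 0.000147) and by 1.41 ± 0.14 against nuo-6 (adjusted p = 0.000184). This is the layout of spp-14, which lies elsewhere on the chromosome.

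The gene spp-4 averaged 204 ± 25.5 TPM in N2, 235.2 ± 15.97 in itr-1, 108 ± 6.37 in nuo-6 and 240.3 ± 26.4 in nuo-6;itr-1, so that it was low in nuo-6 alone. It fell by 0.91 ± 0.10 in nuo-6 against N2 (adjusted p = 2.98e-05) and was higher by 1.15 ± 0.10 in the double mutant than in nuo-6 (adjusted p = 5.68e-05). Its itr-1 effect differed between the backgrounds, with an interaction of 0.94 ± 0.14 (adjusted p = 0.00251). The gene spp-6 was far less abundant, with means of 0.874, 1.78, 1.52 and 4.64 TPM in N2, itr-1, nuo-6 and nuo-6;itr-1. Its log2 fold was 0.59 ± 0.18 in itr-1 against N2 (adjusted p = 0.0271) and 1.16 ± 0.18 in the double mutant against nuo-6 (adjusted p = 0.00210). Genes that lie next to each other in this cluster thus had unlike orders of strains. How reads shared between similar genes were counted is not given in the sources used here.

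**Figure D4:**
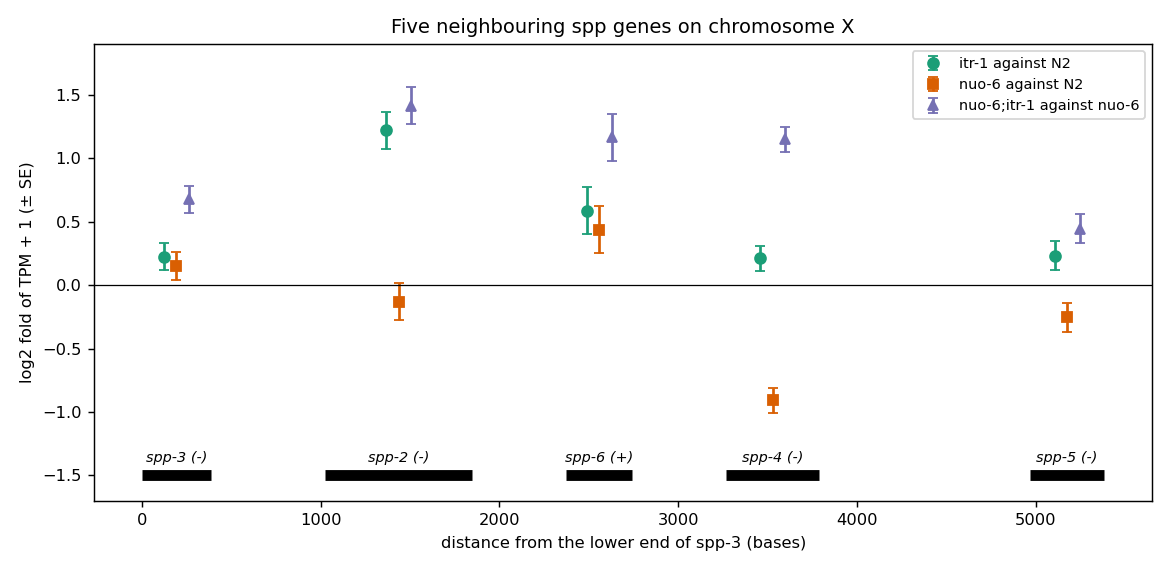
The 5 saposin-like genes of the X cluster as black bars, to scale by distance in bases from the lower end of spp-3, with the strand in brackets, and above each gene its log2 fold ± SE (n = 3 libraries per strain) in 3 comparisons. The folds of spp-2 are 1.22 in itr-1 against N2 and 1.41 in the double mutant against nuo-6, while that of spp-4 in nuo-6 against N2 is -0.91.

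The genes spp-8 and spp-18 were of moderate abundance and lie on chromosome IV. With 9 exons, spp-8 (WBGene00004993, 8481664 to 8483621, plus strand) stood at 47.0, 45.3 and 45.3 TPM in N2, 61.1, 57.2 and 55.2 in itr-1, 51.6, 43.2 and 44.5 in nuo-6, and 80.2, 65.9 and 81.5 in nuo-6;itr-1. Both strains with the itr-1 mutation were above both strains without it, and the double mutant was above itr-1 in every library. In the double mutant the log2 fold was 0.71 ± 0.09 against N2 (adjusted p = 5.47e-05), 0.69 ± 0.09 against nuo-6 (adjusted p = 0.000679) and 0.38 ± 0.09 against itr-1 (adjusted p = 0.00607). The smaller rise in itr-1 against N2 (0.33 ± 0.09, adjusted p = 0.0159) did not hold after median-of-ratios scaling (0.16, adjusted p = 0.218), after quantile normalization (0.0649) or without replicate 1 of itr-1 (0.0539), within a range of 0.00551 to 0.218 over 24 alternatives. In nuo-6 against N2 it was not called (0.01 ± 0.09, adjusted p = 0.919). It was lower in nuo-6 than in itr-1 (-0.31 ± 0.09, adjusted p = 0.0201). This call was lost without replicate 1 of itr-1, replicate 2 or 3 of nuo-6 or all libraries numbered 2 (0.00656 to 0.0764 over 24 alternatives).

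The gene spp-18 (WBGene00005003, 9593712 to 9594413, plus strand) varied more within strains than between most of them. It stood at 47.9, 16.4 and 49.1 TPM in N2, 63.3, 34.95 and 55.0 in itr-1, 51.5, 31.1 and 41.8 in nuo-6, and 100.2, 53.3 and 94.1 in nuo-6;itr-1. The double mutant was above N2 and nuo-6 in every library. Its lowest library was the one numbered 2 in 4 of 4 strains. The same libraries had the highest oocyte score, the mean log2(TPM + 1) of 15 oocyte genes, in 4 of 4 strains. That score was 3.35, 4.43 and 3.66 in N2, 5.28, 6.33 and 5.08 in itr-1, 4.82, 5.08 and 4.95 in nuo-6, and 5.20, 6.01 and 4.57 in nuo-6;itr-1. The library numbered 2 was also lowest in 3 of 4 strains for spp-1, spp-3, spp-5 and spp-8. For spp-9, spp-14, abf-2, abf-5 and abf-6 it was lowest in 1 or 2 of 4. Oocyte transcripts accumulate as the germ line matures late in L4. The part of developmental timing in the level of spp-18 and of the other members was not tested.

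The only pairwise difference of spp-18 that passed in the fit described was the double mutant against N2 (1.21 ± 0.41, adjusted p = 0.0226). It did not hold when only both groups were fitted (0.0558), after quantile normalization (0.0569) or median-of-ratios scaling (0.0771), or without replicate 2 of N2 (0.70, adjusted p = 0.0749) or replicate 1 (0.0771) or 3 (0.0630) of the double mutant. Over 24 alternatives its adjusted p ran from 0.000249 to 0.0771. With the oocyte score as a covariate, spp-18 was higher in itr-1 than in N2 (2.00 ± 0.39, adjusted p = 0.00970, range 0.00970 to 0.944). So it was in nuo-6 (1.20 ± 0.31, adjusted p = 0.0101, range 0.0101 to 0.912). The N2 libraries had the lowest scores, so score and strain cannot be fully told apart. The double mutant gained a call against nuo-6 in 4 of 24 alternatives (1.22 ± 0.24 with the oocyte score, adjusted p = 0.00605) and against itr-1 in 2 of 24. Without all libraries numbered 2, chosen after seeing the data, the log2 fold was 1.05 ± 0.11 against nuo-6 (adjusted p = 0.00284; 0.00284 to 0.322 over 24) and 0.71 ± 0.11 against itr-1 (adjusted p = 0.00370; 0.00370 to 0.470).

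**Figure D5:**
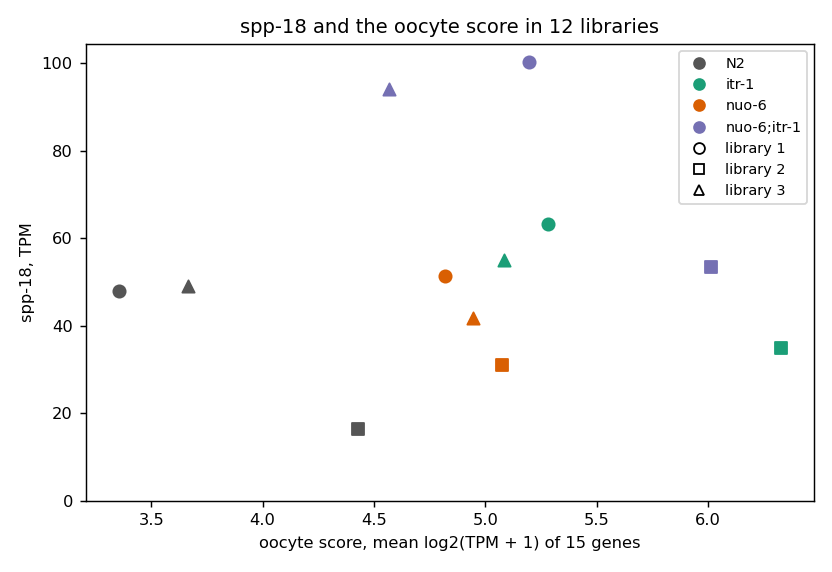
Level of spp-18 in TPM against the oocyte score (mean log2(TPM + 1) of 15 oocyte genes) in each of the 12 libraries, with colour for the strain and marker shape for the replicate number. In each strain the library numbered 2, a square, lies lowest for spp-18 and farthest right for the score.

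The defensin-like genes abf-5 and abf-6 were higher in both single mutants and in the double mutant than in N2. They are neighbours on the X chromosome, 731 bases apart on the same strand. The gene abf-5 (WBGene00000016, 12792854 to 12793386, plus strand) stood at 8.06, 4.94 and 4.21 TPM in N2, 11.9, 13.8 and 16.2 in itr-1, 22.9, 15.4 and 15.7 in nuo-6, and 33.97, 21.2 and 33.5 in nuo-6;itr-1. No library of a mutant overlapped those of N2. Its log2 fold against N2 was 1.18 ± 0.24 in itr-1 (adjusted p = 0.00391), 1.52 ± 0.24 in nuo-6 (adjusted p = 0.000383) and 2.19 ± 0.24 in the double mutant (adjusted p = 1.93e-05). The double mutant was higher than itr-1 (1.01 ± 0.24, adjusted p = 0.00647) and did not pass against nuo-6 (0.68 ± 0.24, adjusted p = 0.0831).

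The gene abf-6 (WBGene00000017, 12794118 to 12794870, plus strand) stood at 13.1, 10.1 and 7.89 TPM in N2, 16.3, 20.2 and 21.4 in itr-1, 18.6, 17.6 and 17.2 in nuo-6, and 30.3, 25.6 and 34.8 in nuo-6;itr-1. The 3 N2 libraries were lowest, both single mutants overlapped, and the double mutant was highest in all its libraries. Against N2 the log2 fold was 0.85 ± 0.16 in itr-1 (adjusted p = 0.00287), 0.75 ± 0.16 in nuo-6 (adjusted p = 0.00287) and 1.47 ± 0.16 in the double mutant (adjusted p = 2.09e-05). The double mutant was higher than itr-1 (0.62 ± 0.16, adjusted p = 0.0106) and than nuo-6 (0.72 ± 0.16, adjusted p = 0.0141). The call against nuo-6 was lost without replicate 3 of nuo-6, replicate 1 or 3 of the double mutant or all libraries numbered 2 (0.00740 to 0.0566 over 24 alternatives).

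The interaction was not called for either gene (-0.51 ± 0.34, adjusted p = 0.364, for abf-5 and -0.13 ± 0.23, adjusted p = 0.750, for abf-6). Both genes lie within nhr-27 on the opposite strand, which was at 0 to 0.146 TPM in all libraries. Of the 6544 candidates, the genes most correlated with abf-6 over the 12 libraries were nlp-15 (r = 0.980), nhr-88 (r = 0.977), tyr-1 (r = 0.975) and xtr-1 (r = 0.975). The neuropeptide gene nlp-15 averaged 16.96 TPM in N2, 23.9 in itr-1, 23.0 in nuo-6 and 29.9 in nuo-6;itr-1.

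The gene abf-2 (WBGene00000013, chromosome I, 3885631 to 3885888, minus strand) encodes a peptide of the pharynx that is active against bacteria and yeast. It was the least abundant of the 10 by mean TPM, at 1.70, 0.749 and 4.24 TPM in N2, 1.89, 0.545 and 1.62 in itr-1, 3.16, 3.58 and 6.399 in nuo-6, and 4.41, 11.7 and 8.04 in nuo-6;itr-1. The double mutant was above N2 and itr-1 in every library, and nuo-6 overlapped with both N2 and the double mutant. The log2 fold in the double mutant was 1.55 ± 0.43 against N2 (adjusted p = 0.00862) and 1.91 ± 0.43 against itr-1 (adjusted p = 0.00463). Neither single mutant passed against N2 (0.84 ± 0.43, adjusted p = 0.124, for nuo-6 and -0.36 ± 0.43, adjusted p = 0.522, for itr-1). Without all libraries numbered 2, an alternative chosen after seeing the data, the call against N2 was lost (0.89, adjusted p = 0.0948; range over 24 alternatives 0.00231 to 0.0948). The gene lies within C50F2.2 on the opposite strand, which stood at 7.79 to 16.3 TPM, and a share of its reads in the value of abf-2 was not tested.

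Over the 12 libraries the 45 pairs of the 10 genes had Pearson correlations of -0.002 to 0.960 on the log2(TPM + 1) scale, with a median of 0.642, and 11 pairs were above 0.8. The highest were abf-5 with abf-6 (0.960) and spp-9 with spp-14 (0.955), and the lowest was spp-1 with spp-5 (-0.002). The pair spp-3 and spp-8 stood at 0.904 and the pair spp-1 and abf-2 at 0.886. The points are 12 libraries in 4 strains, so these values describe which genes share an order of strains. By that order the genes fall along a range from those that followed the itr-1 mutation (spp-9 and spp-14) to those whose nuo-6-carrying strains were highest (spp-1 and abf-2).

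Of the other 27 spp and abf genes, 21 were tested, namely 20 of 24 spp genes and 1 of 3 abf genes. Among the 20 spp genes, 6 were higher and 4 lower in nuo-6 against N2, 8 and 3 in itr-1, and 15 and 3 in the double mutant. The genes spp-12, spp-21, spp-27 and spp-29 passed the filter only through mutant libraries, so they had to exceed N2 in a mutant to be tested. Among the higher genes are spp-27 and spp-29 in nuo-6, spp-12, spp-21 and spp-27 in itr-1, and all of these in the double mutant. Over all tested genes the shares higher and lower were 37.3% and 15% in nuo-6, 29% and 11.1% in itr-1, and 46.3% and 17% in the double mutant, so 6 of 20 higher in nuo-6 is below the background. Against nuo-6 the double mutant had 10 higher and 2 lower (9.99% and 5.46% of all tested genes), and against itr-1 it had 6 and 1 (29.3% and 16.4%). In nuo-6 against itr-1, 5 were higher and 6 lower (20% and 13.9%). Both spp-12 and spp-21 passed the filter only through itr-1-carrying libraries, so they also had to exceed nuo-6 to be tested. They are among the higher genes in the double mutant against nuo-6 and the lower genes in nuo-6 against itr-1. Through nuo-6-carrying libraries alone, spp-29 passed and had to exceed itr-1. It is among the higher genes in both nuo-6-carrying strains against itr-1. With median-of-ratios scaling the counts of the comparisons, in the order given, were 4 and 5, 7 and 3, 10 and 3, 7 and 2, 6 and 2, and 5 and 6. The tested abf gene, abf-1, was listed at 0 in N2 and reached 3.08, 1.21 and 0.865 TPM in the double mutant (adjusted p = 0.00457 against N2). It entered the fit only through 3 nuo-6-carrying libraries, so it had to differ to be tested.

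By the rule for the other family genes, 4 are named, of which spp-12 and spp-4 are given above. The gene spp-17 was lower in all 3 mutants than in N2, from 1484 ± 242 TPM in N2 to 604 ± 57.9 in itr-1, 494 ± 64.8 in nuo-6 and 280 ± 29.7 in nuo-6;itr-1 (SD, n = 3). It fell by 1.29 ± 0.13 in itr-1 (adjusted p = 6.20e-05), by 1.58 ± 0.13 in nuo-6 (adjusted p = 4.76e-06) and, in the double mutant, fell by 2.39 ± 0.13 (adjusted p = 1.97e-07), all against N2. In N2 its mean TPM was more than that of spp-3, and in the double mutant it was less. The gene spp-24 rose from 4.45 ± 1.4998 TPM in N2 to 9.24 ± 1.26 in itr-1, 16.9 ± 1.62 in nuo-6 and 17.2 ± 1.38 in the double mutant. Its log2 fold was 1.75 ± 0.19 in nuo-6 against N2 (adjusted p = 2.32e-05), and its interaction was -0.92 ± 0.26 (adjusted p = 0.0458). In the interaction 1 of the 20 was higher (spp-4) and 1 lower (spp-24), beside 3.69% and 8.32% of all tested genes. With median-of-ratios scaling the counts were 1 and 0, so that the call of spp-24 was lost.

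The level of regulators known to control gut defence was read from lists, whose counts stand beside 37.3% of all tested genes higher in nuo-6, 29% in itr-1 and 46.3% in the double mutant, all against N2. The p38 MAPK cascade, which runs from TIR-1 through NSY-1 and SEK-1 to the kinase PMK-1, is a main activator of intestinal immune genes. Of its 9 tested genes (of 10 in the table), 8 were higher in nuo-6 against N2, 5 in itr-1 and 8 in the double mutant, and none was lower. With median-of-ratios scaling these were 6 higher, 3 higher, and 7 higher with 1 lower. The adaptor gene tir-1 rose from 8.96 ± 1.24 to 18.9 ± 0.611 TPM in nuo-6 (1.00 ± 0.14, adjusted p = 0.000150). The protein kinase C gene tpa-1 rose from 12.4 ± 0.529 to 23.5 ± 0.674 TPM (0.87 ± 0.07, adjusted p = 5.21e-06). The MAP kinase kinase kinase gene nsy-1 had a log2 fold of 0.45 ± 0.07 (adjusted p = 0.000268), and vhp-1, which encodes a phosphatase that opposes MAP kinases, one of 0.71 ± 0.12 (adjusted p = 0.000560). The gene pmk-1 itself was not called in nuo-6 (0.16 ± 0.08, adjusted p = 0.0966) or itr-1 (-0.04 ± 0.08, adjusted p = 0.695) and was higher in the double mutant than in N2 (0.34 ± 0.08, adjusted p = 0.00266). The transcript level of a kinase does not show its activity.

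Of 13 transcription factors and receptors of gut defence, 9 were higher in nuo-6 against N2, 6 in itr-1 and 11 in the double mutant, and none was lower. Median-of-ratios scaling turned these into 3 higher and 2 lower, 2 higher and 1 lower, and 7 higher with none lower. Those named by the rule in nuo-6 against N2 were daf-16, the forkhead factor of insulin signalling (0.65 ± 0.06), skn-1, a factor of the oxidative stress response (0.64 ± 0.07), daf-2, the insulin receptor (0.50 ± 0.07), and nhr-49, a nuclear receptor of lipid metabolism (0.29 ± 0.06). The intestinal GATA factor gene elt-2, singled out after its values were seen, averaged 14.6 ± 2.13 TPM in N2, 14.1 ± 3.19 in itr-1, 16.5 ± 3.24 in nuo-6 and 27.04 ± 1.76 in nuo-6;itr-1. It was higher in the double mutant than in nuo-6 (0.69 ± 0.17, adjusted p = 0.0190) and than in itr-1 (0.91 ± 0.17, adjusted p = 0.00156). Its interaction did not pass (0.75 ± 0.24, adjusted p = 0.0657).

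Of 10 genes of the DBL-1 pathway, 3 were higher and 1 lower in nuo-6 against N2, 3 were higher in itr-1, and 5 were higher and 1 lower in the double mutant. These shares of higher genes were close to those of all tested genes. With median-of-ratios scaling no gene of this list was called in itr-1 against N2 (1 lower in nuo-6, and 5 higher with 1 lower in the double mutant). The ligand gene dbl-1 was not called in nuo-6 (0.14 ± 0.08, adjusted p = 0.163) or in itr-1 (0.04 ± 0.08, adjusted p = 0.709). The gene lon-1 is repressed by DBL-1 signalling. Against N2 it fell by 0.59 ± 0.10 in nuo-6 (adjusted p = 0.000649) and by 0.57 ± 0.10 in the double mutant (adjusted p = 0.000568). In itr-1 it was not called (-0.10 ± 0.10, adjusted p = 0.453). The genes higher in nuo-6 were sma-9 (0.36 ± 0.11), sma-6 (0.29 ± 0.09) and daf-4 (0.28 ± 0.09). The part of DBL-1 signalling in the level of spp-9 was not tested.

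Antimicrobial peptide genes of the epidermis (nlp, cnc and fipr genes) had another layout. Of 21 tested (of 25), 12 were higher and 1 lower in nuo-6 against N2, 10 and 1 in itr-1, and 10 and 2 in the double mutant. Over all tested genes the shares were 37.3% and 15%, 29% and 11.1%, and 46.3% and 17%. In the double mutant against nuo-6, 1 was higher and 2 lower, beside 9.99% and 5.46% of all tested genes. In the interaction 1 was higher and 7 were lower, beside 3.69% and 8.32% of all tested genes. The median interaction was -0.59, beside 0.41 for the 10 spp and abf genes and -0.05 for all tested genes. With median-of-ratios scaling the interaction had 1 higher and 6 lower. The gene nlp-27 averaged 37.6 ± 8.69 TPM in N2, 117 ± 12.6 in itr-1, 172 ± 22.1 in nuo-6 and 172 ± 7.88 in the double mutant. The gene cnc-8 averaged 110.3 ± 19.9, 193 ± 23.1, 256 ± 6.33 and 322 ± 42.4 TPM in the same order.

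Markers of the tissues that make these peptides were read beside them. All 10 intestine markers, of which elt-2 and elt-7 are also in the list of gut defence regulators, were detected, with none at 0 in all libraries of a strain. They summed to 1765 to 1972 TPM in N2, 1643 to 1888 in nuo-6, 2330 to 2389 in itr-1 and 1920 to 2163 in nuo-6;itr-1. In itr-1 against N2, 5 were higher and none lower, with log2 folds from -0.24 (ges-1) to 0.81 (ifb-2) and a median of 0.26, and in the double mutant against nuo-6, 6 were higher and none lower, with folds from 0.11 (act-5) to 0.69 (elt-2) and a median of 0.27. In the double mutant against itr-1, 3 markers were higher and 4 lower. In nuo-6 against N2, 4 were higher and 3 lower. With median-of-ratios scaling the counts were 0 higher and 5 lower in nuo-6 against N2, and 3 and 1 in itr-1 against N2. They were 2 and 0 in the double mutant against nuo-6, and 2 and 5 in the double mutant against itr-1. The medians over all tested genes were 0.14 in itr-1 against N2 and 0.07 in the double mutant against nuo-6. Of all tested genes, 29% were higher and 11.1% lower in the former, and 9.99% and 5.46% in the latter. The shares were 37.3% and 15% in nuo-6 against N2 and 29.3% and 16.4% in the double mutant against itr-1. The 12 pharynx markers summed to 477 to 479.6 TPM in N2, 438 to 455 in nuo-6, 501 to 543 in itr-1 and 418 to 459 in nuo-6;itr-1. In the double mutant against itr-1, 2 of them were higher and 4 lower (2 and 6 with median-of-ratios scaling). The part of tissue amounts in the levels of the spp and abf genes was not tested.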

How the data were processed

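Polyadenylated RNA of whole L4 worms was made into stranded libraries after DNase treatment, per the labels' protocols. The authors deposited TPM for 46926 genes in 12 libraries, and each library sums to the same total, so that values are shares. Per the submitters' processing notes the reads were placed on WBcel235. How reads were aligned and counted, with strand or without, and what became of multi-mapped reads is not given in the sources. All 46926 identifiers were found in the Ensembl release 115 annotation of WBcel235, which gave symbols and positions. The labels call the replicates biological without saying what libraries of the same number have in common, and p-values measure the spread between these libraries.

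Genes that reached 1 TPM in 3 or more libraries, 15230 in all, were taken from the deposited TPM as log2(TPM + 1). In R 4.3.3, limma 3.58.1 fitted all 12 libraries together with a mean per strain and a trended eBayes step (8 residual degrees of freedom), and every adjusted p is limma's, two-sided, with Benjamini-Hochberg adjustment over all genes of a comparison. The fit was tested on simulated data with known changes. Genes and lists were chosen with earlier results of these data known. The lists were the p38 pathway, gut defence regulators, the DBL-1 pathway, epidermal antimicrobial peptides and markers of 9 kinds of tissue, germ cell or yolk. Named genes were the 10 members, the 4 other family genes with the smallest adjusted p in the single mutants against N2, at most 4 genes of a list with the smallest adjusted p in nuo-6 against N2, and the 4 genes most correlated with spp-14 and with abf-6. The genes pmk-1 and dbl-1, the ends of a range of folds and genes that passed the filter only through mutant libraries were named outside this rule. Others named are said to be chosen for position or after their values were seen. In all 24 alternatives were run, 1 of them (without all libraries numbered 2) chosen after seeing the data. Plots used matplotlib 3.10.9, with pandas 2.3.3 and numpy 2.4.6 in Python 3.11.15. No sequence is printed, since no sequence table was used here.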

Additional observations from a re-analysis of the deposited data

Results flagged for a closer look

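In 4 saposin-like genes the effect of the itr-1 mutation differed between the N2 and nuo-6 backgrounds. Each passed the test of the interaction itself, adjusted over all tested genes with limma. These were spp-1 and spp-9 of the 10 genes, and spp-4 and spp-24 of the 20 other spp genes tested. Over all tested genes 3.69% had a positive interaction, 8.32% a negative one and 12% either. For spp-4 the interaction was 0.94 (adjusted p = 0.00251), since the level was low in nuo-6 and back at that of N2 in the double mutant. For spp-1 the interaction was 0.64 (adjusted p = 0.0163), with a fold of -0.26 against N2 that did not pass and a rise of 0.39 against nuo-6. The interaction of spp-9 was 1.09 (adjusted p = 0.0324) and rests on baselines under 1 TPM, as described above. Its call was kept in 11 of 23 alternatives. The gene spp-24 had a negative interaction of -0.92 (adjusted p = 0.0458), with a rise of 0.95 in itr-1 against N2 (adjusted p = 0.00317) and a fold of 0.03 in the double mutant against nuo-6 (adjusted p = 0.926). The call of spp-24 was lost with median-of-ratios scaling, where none of the 20 tested other spp genes had a negative interaction past the threshold. With 3 libraries per strain, single libraries were not screened as outliers.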

How the results depend on the processing

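Of 1670 results for single genes among the 10 over the alternatives, 1576 kept their side of the threshold, 51 gained a call and 43 lost one, and no called value changed sign. The 20 sign changes lie within the 1576, in values that were not called. Members changed in nuo-6 against N2 (3) were 5 with the oocyte score as a covariate and 3 to 5 with a library left out (5 without N2 replicate 3). Of all 15230 tested genes, 7480 changed with that score and 6862 without N2 replicate 3, beside 7968 in the fit described. In itr-1 against N2 (5) members changed were 8 with that score and 4 to 6 with a library left out. Of all tested genes, 1933 changed there with the score, beside 6109 in the fit described. With a library left out, members changed were 8 to 9 in nuo-6;itr-1 against N2 (9) and 4 to 8 against nuo-6 (7, or 4 without replicate 1 or 3 of the double mutant). They were 7 to 7 against itr-1 (7) and 4 to 6 in nuo-6 against itr-1 (5). The oocyte score as a covariate gave 10, 9, 7 and 7 in the same order. Of all tested genes, 8273, 3822, 7789 and 5243 changed with the score, beside 9647, 2353, 6964 and 5168 in the fit described. For nuo-6;itr-1 against itr-1, a pseudocount of 0.1 gave 6, and quantile normalization and the omission of all libraries numbered 2 gave 8. Of all tested genes, 6815, 6823 and 6203 changed in these fits.

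For the interaction, the 2 members became 1 with a pseudocount of 0.1 or 0.5, 1 with no filter, 0 with the oocyte score, and 1 to 5 with a library left out. It was 1 without replicate 1 of N2, 2 of itr-1, any of nuo-6 or 1 of the double mutant, and 5 without replicate 2 of the double mutant. Without the latter, 2637 of all tested genes were called, beside 1829 in the fit described. With the replicate block, members changed were 9 (8 higher, 1 lower) in itr-1 against N2 and 4 in the interaction. Of all tested genes, 6873 and 2762 changed with it, beside 6109 and 1829 in the fit described. With this block spp-18 was also called in itr-1 against N2 (adjusted p = 0.0305) and in the double mutant against nuo-6 (0.00609) and itr-1 (0.0106). Same-numbered libraries had deviations correlated at -0.0195 to 0.5065, with a median of 0.117 (11 of 18 pairs over 0.1). Libraries of different numbers had a range of -0.4745 to 0.2934 and a median of -0.078 (7 of 36 pairs over 0.1). Not every library correlated best with its own number, and the numbers were not taken as a pairing. A share of the spread between libraries may thus go with the replicate number, which the main fit leaves out.

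Over all tested genes, the 6109 changed in itr-1 against N2 became 1933 with the oocyte score. The 2353 in nuo-6;itr-1 against nuo-6 became 3822 with it, and 1394, 1163, 1269 and 1418 without replicate 2 or 3 of nuo-6 or 1 or 3 of the double mutant. The 1829 of the interaction became 2762 with the replicate block, 747 with the oocyte score, and 952, 1139, 881, 921 and 1060 without replicate 1 or 3 of N2, 2 or 3 of nuo-6 or 1 of the double mutant. The cause was not tested. A fit of only the groups compared was not possible for the interaction, which needs all 4 strains. TPM keeps no depth, so no counting error is given, and 3 libraries per strain limit the precision.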

Other observations

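Markers of other tissues also differed between strains. The counts against N2 below stand beside 37.3% of all tested genes higher and 15% lower in nuo-6. The shares were 29% and 11.1% in itr-1, and 46.3% and 17% in the double mutant. The 8 neuron markers summed to 453 to 481 TPM in N2, 613 to 689 in nuo-6, 529 to 585 in itr-1 and 713 to 799.99 in nuo-6;itr-1, and 5, 4 and 8 of them were higher in nuo-6, itr-1 and the double mutant than in N2 (3, 1 and 4 with median-of-ratios scaling). The 8 epidermis markers summed to 4895 to 5515 TPM in N2 and to 2874 to 4051 over the single mutants, and 5 were lower in nuo-6, 6 in itr-1 and 4 in the double mutant, with 1 higher in each (6, 6 and 7 lower with median-of-ratios scaling). Of the 8 body wall muscle markers, 3, 4 and 5 were lower in the same order, and 1 was higher in nuo-6 (4, 7 and 7 lower and none higher with median-of-ratios scaling). The muscle sum was 4184 to 4312 TPM in N2 and 3033 to 3053 in the double mutant.

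Of the 8 germ cell markers, 1 was higher and 2 lower in nuo-6 against N2, 2 were higher in itr-1, and 2 were higher and 2 lower in the double mutant. With median-of-ratios scaling these were 0 higher and 5 lower, 2 and 1, and 0 and 5. Of 15 oocyte genes, 10 were higher in nuo-6, 15 in itr-1 and 13 in the double mutant than in N2, and none was lower (7, 14 and 8 higher with median-of-ratios scaling). Of 9 sperm markers, 1 was higher and 2 lower in nuo-6, 4 were higher in itr-1, and 3 were lower in the double mutant (1 higher and 3 lower, 2 and 0, and 0 and 4 with median-of-ratios scaling). None of the 6 vitellogenin genes was called in a single mutant, and 3 were lower in the double mutant than in N2. All 6 were lower in the double mutant than in itr-1, a comparison in which 16.4% of all tested genes were lower. The summed level was 71.8 to 707 TPM in the double mutant and 685 to 3735 TPM in itr-1.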
